A study of Mus musculus with 6 samples.

Results

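The 10 genes described here are Arc, Fos, Fosb, Junb, Egr1, Egr2, Egr3, Ier2, Ier5 and Npas4, a set of immediate early genes chosen by symbol from a table of 21006 gene symbols. All 10 were found in the table, and all 10 passed the filter on low counts among 14555 tested genes. They were read in 6 RNA libraries of mouse branchial arches at E11.5, 3 DKO (double knockout) and 3 control. Both groups carried the Rosa26 TdTomato/+ reporter and Wnt1-cre, which is active in the neural crest. The DKO libraries carried Ehmt1f/f and Ehmt2f/f, floxed alleles of the genes for the H3K9 methyltransferases GLP and G9a, and the controls carried Ehmt1+/+ and Ehmt2+/+. In both groups arches were dissociated with papain, sorted for the red reporter and kept in RNAlater before RNA extraction. The labels call the replicates biological without saying whether a library is 1 embryo or a pool. The p-values therefore set the group difference against the spread between libraries, and the spread between single embryos is not known.

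Immediate early genes are switched on within minutes of a stimulus by transcription factors that are already present in the cell, mainly SRF with its ternary complex partners and CREB, and their transcripts are short-lived. Fos, Fosb and Junb encode subunits of the AP-1 transcription factor, Egr1, Egr2 and Egr3 encode zinc-finger factors, and Npas4 encodes a basic helix-loop-helix factor known from calcium signalling in neurons. Arc encodes a protein descended from a retrotransposon Gag protein that forms capsids and regulates glutamate receptor traffic at synapses. Enzymatic dissociation and sorting are known to induce Fos, Junb, Egr1 and Ier2 in many tissues, so Arc was read in each library against genes that respond to dissociation. In bulk RNA, more cells that express a gene and more transcript in each cell cannot be told apart.

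The promoter table of RefSeq (GRCm38.p6, the assembly of mm10) held an entry for 6 of the 10 genes, and Arc, Egr1, Egr3 and Ier2 were without one. The 250 bases before the start of Fos, Junb and Ier5 are shown because they set genes with and without a cAMP response element (CRE) half-site beside their changes below. For Npas4, Fosb and Egr2, 30 bases around the sites are shown. Capitals mark the CRE half-site TGACG, searched on both strands, and, in Egr2, the CArG box to which SRF binds.
Fos (chr12:85473640-85473889, plus strand): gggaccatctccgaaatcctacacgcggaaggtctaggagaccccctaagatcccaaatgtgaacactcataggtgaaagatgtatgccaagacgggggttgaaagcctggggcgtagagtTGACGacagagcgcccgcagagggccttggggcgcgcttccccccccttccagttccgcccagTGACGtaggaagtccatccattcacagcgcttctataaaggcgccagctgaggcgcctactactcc
Junb (chr8:84978749-84978998, minus strand): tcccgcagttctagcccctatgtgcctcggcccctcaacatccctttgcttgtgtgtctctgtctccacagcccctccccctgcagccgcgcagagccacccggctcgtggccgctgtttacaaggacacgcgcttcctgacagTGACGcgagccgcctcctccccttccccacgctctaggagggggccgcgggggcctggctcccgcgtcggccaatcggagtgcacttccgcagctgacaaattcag
Ier5 (chr1:155099637-155099886, minus strand): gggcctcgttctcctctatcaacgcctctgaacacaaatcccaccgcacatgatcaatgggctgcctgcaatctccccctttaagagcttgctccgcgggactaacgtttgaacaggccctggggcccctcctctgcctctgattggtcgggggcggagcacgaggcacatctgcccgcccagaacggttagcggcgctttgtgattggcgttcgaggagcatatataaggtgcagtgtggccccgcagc
Npas4 (chr19:4990128-4990157, minus strand): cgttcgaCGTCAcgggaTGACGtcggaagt
Fosb (chr7:19310088-19310117, minus strand): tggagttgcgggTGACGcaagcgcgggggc
Egr2 (chr10:67537793-67537822, plus strand): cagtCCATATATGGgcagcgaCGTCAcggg

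Half-sites lay 129 to 125 and 66 to 62 bases before the start of Fos, 60 to 56 before that of Fosb and 106 to 102 before that of Junb. In Npas4 a pair of half-sites on opposite strands lay 179 to 175 and 169 to 165 bases before the start. The stretches shown for Npas4 and Fosb lie within the RefSeq spans of these genes, and their windows overlap exons of the same gene. For these 2 genes the start is therefore that of the promoter entry, not the outer end of the gene. The Egr2 window shown is 1 of 5 in the table, lies within the RefSeq span of the gene, and has a CArG box 72 to 63 bases and half-sites 55 to 51 and, outside the stretch shown, 111 to 107 bases before its start. Ier5 had no half-site and no CArG box in its 250 bases. The half-site was present in 17.8% of the 32807 promoter windows in the table and the CArG box in 1.47%. The full CRE, TGACGTCA, which contains the half-site, was in 1.55% of all windows and in none of those of these 6 genes. On both strands, the AP-1 site TGANTCA (6.75% of all windows) and the EGR site GCGTGGGCG (0.536%) were likewise in none of them. A match describes letters in a window and does not show binding.

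Total counts lay between 23414466 and 44538260 per library. The targeted genes were lower in all DKO libraries, with Ehmt2 at 128 ± 11.3 against 355 ± 7.13 CPM (counts per 1000000 counts of the library, with library sizes scaled by TMM) and Ehmt1 at 148 ± 18.2 against 259 ± 8.92 CPM (n = 3, SD). Whether the counted exons lie within the floxed parts was not examined. On the first principal component DKO replicate 3 lay closest to the controls. Without it edgeR called 7.57% of all tested genes (597 higher and 509 lower), and with all libraries DESeq2 called 7.6%, so counts of list genes in those fits stand against these shares. Markers of arch crest mesenchyme, such as Prrx1 and Pdgfra, summed over 12 genes to between 1773 and 2179 CPM in the DKO group and between 2061 and 2429 CPM in the controls. Neuron markers, which crest cells also give rise to, summed to 1355 to 1671 CPM in control and 1282 to 1400 CPM in DKO libraries, so markers of both were present.

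Arc rose most among the 10 genes. Its level was 49.3, 40.8 and 32.8 CPM in DKO replicates 1 to 3 and 5.21, 6.15 and 7.76 CPM in control replicates 1 to 3. The lowest DKO library was thus well above the highest control, and the groups did not overlap. The means were 40.97 ± 8.24 CPM in DKO and 6.37 ± 1.29 CPM in the controls (n = 3, SD), a log2 fold change of 2.69 (SE 0.20; adjusted p = 0.000729 by edgeR) or 6.45-fold. Arc (ENSMUSG00000022602.14) lies on chromosome 15, 74669081 to 74672570 on mm10, on the minus strand. It ranked 14th by p-value and 61st by rise among the 14555 tested genes. The counts behind these levels were 1829, 1787 and 1468 in DKO and 233, 137 and 227 in the controls. Arc was called in every alternative fit tried, with log2 fold changes between 2.42 and 2.86 (edgeR, DESeq2 or limma-voom, adjusted p at most 0.0105).

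Of the 10 genes, 4 rose and 0 fell, namely Arc, Npas4, Ier5 and Fosb. Over all tested genes 3.01% were called (2.19% higher and 0.818% lower), by the robust quasi-likelihood test of edgeR at an adjusted p below 0.05. All 10 had a positive log2 fold change, as had 48.7% of all tested genes, and the median was 0.45 against -0.01 over all tested genes. The DKO libraries lay above the controls without overlap for 5 of the 10, against 14.5% of all tested genes. The 10 genes were chosen with earlier results of these data known, and control replicate 1 was the lowest library for 9 of them. These values therefore describe the set and do not test it.

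**Figure D1:**
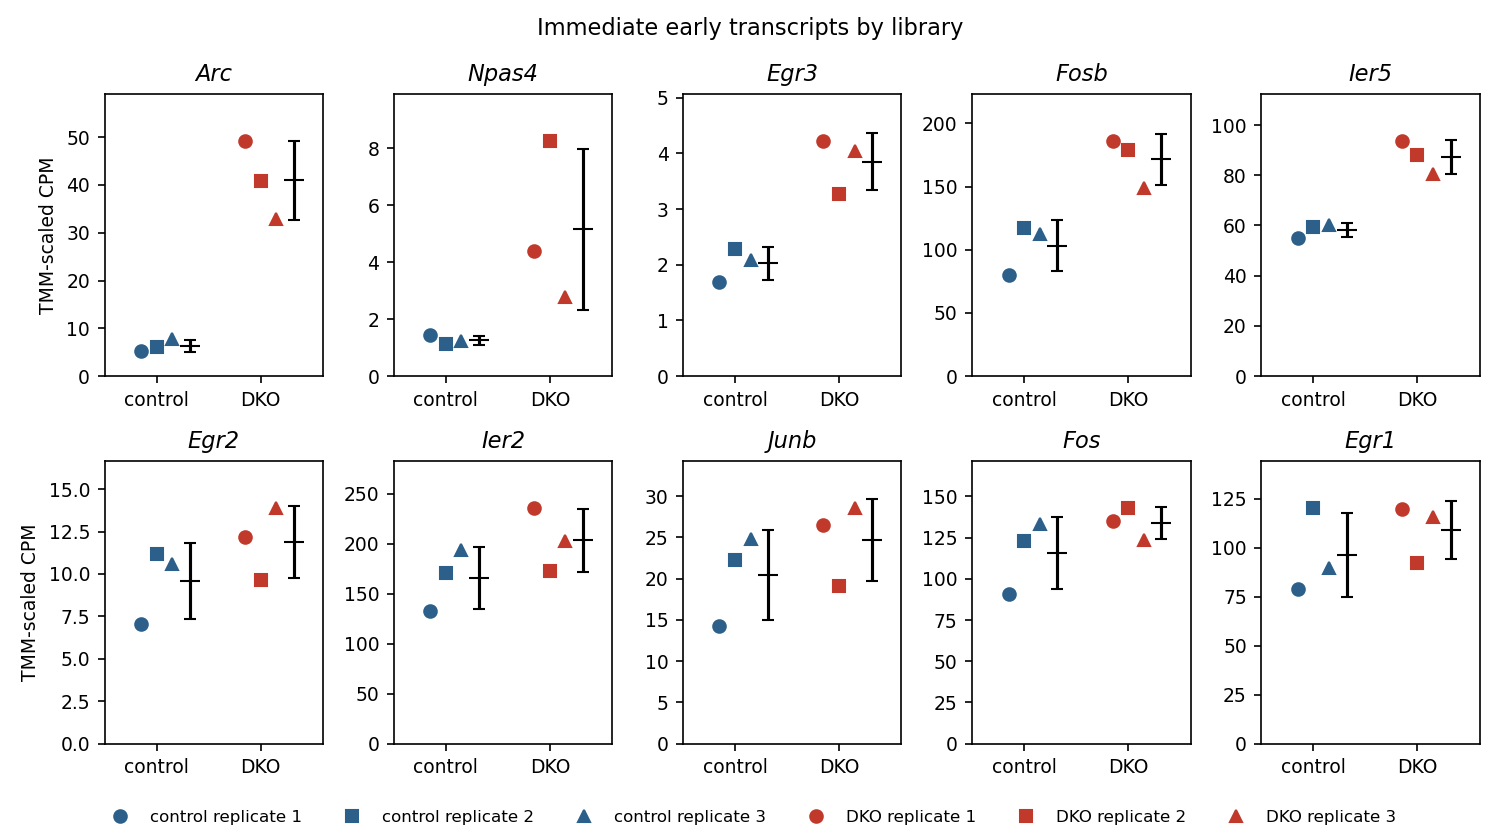
TMM-scaled CPM of the 10 immediate early genes in each control (blue) and DKO (red) library, with a separate linear axis from 0 for each gene and a bar for the mean ± SD of 3 libraries. Groups are apart for Arc, Npas4, Egr3, Fosb and Ier5 and overlap for Egr2, Ier2, Junb, Fos and Egr1, and control replicate 1 is the lowest library for 9 of the 10.

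Npas4, the other neuronal activity gene of the set, was low in controls and uneven among DKO libraries. DKO replicates 1 to 3 measured 4.39, 8.27 and 2.79 CPM, where the controls measured 1.43, 1.12 and 1.23 CPM. DKO replicate 2 held more than the other DKO libraries together, and even the lowest DKO library was above all controls. The means of 5.15 ± 2.82 and 1.26 ± 0.157 CPM (n = 3, SD) gave a log2 fold change of 2.02 (SE 0.40; adjusted p = 0.0376 by edgeR), on 25 to 64 counts per control library. Npas4 lies on chromosome 19, 4984353 to 5003439. The call ended with limma-voom (adjusted p = 0.0955) and without DKO replicate 1, control replicate 1, control replicate 2 or control replicate 3 (edgeR adjusted p between 0.0998 and 0.156). Without DKO replicate 2 the log2 fold change was 1.49 and the call held (edgeR adjusted p = 0.0476).

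Among AP-1 subunits Fosb rose and Fos and Junb did not pass the test. Fosb stood at 186, 179 and 149 CPM in DKO replicates 1 to 3 and 80.4, 117 and 113 CPM in control replicates 1 to 3. Its groups did not overlap, and control replicate 1 was the lowest of the controls. The log2 fold change was 0.73 (SE 0.15; adjusted p = 0.049 by edgeR), with means of 171 ± 19.9 and 103 ± 19.98 CPM (n = 3, SD). That call lies at the threshold and ended without DKO replicate 1 or 2 and without any 1 of the controls (edgeR adjusted p between 0.0604 and 0.186). Without control replicate 1 the log2 fold change was 0.59. Fosb lies on chromosome 7, 19302696 to 19310118.

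Fos, the best known partner in AP-1, measured 135, 143 and 124 CPM in DKO and 90.9, 123 and 133 CPM in the controls. Control replicates 2 and 3 lay within or beside the DKO range, and the log2 fold change was 0.21 (SE 0.14; adjusted p = 0.409 by edgeR). Junb, which encodes a Jun family subunit, measured 26.5, 19.1 and 28.5 CPM in DKO and 14.3, 22.3 and 24.8 CPM in the controls (log2 fold change 0.28, SE 0.23; adjusted p = 0.525 by edgeR). Junb overlaps Prdx2 on the other strand in GENCODE M21, and no source used here gives the strand setting of the counting, which leaves its level uncertain. The list of 12 AP-1 partners had 10 tested genes, of which 0 were called by edgeR, DESeq2 or limma-voom and 1 had an unadjusted p below 0.05. Over all tested genes edgeR called 3.01%. The share of all tested genes with an unadjusted p below 0.05 was not counted, so here and below such counts only describe a list. Without DKO replicate 3, Fosl2 was called higher. The most abundant genes of the list, Jun and Jund, had log2 fold changes of 0.27 and 0.10.

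None of the 3 EGR factors passed the test, but Egr3 came close to it. Egr3 measured 4.23, 3.27 and 4.05 CPM in DKO and 1.70, 2.29 and 2.09 CPM in the controls. All DKO libraries were above all controls, at a log2 fold change of 0.93 (SE 0.21; adjusted p = 0.0603 by edgeR). With DESeq2 (adjusted p = 0.00989) and with library-size scaling (edgeR adjusted p = 0.0427) Egr3 was called. Its gene lies on chromosome 14, 70077317 to 70082613.

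Egr1 measured 119.7, 92.3 and 115 CPM in DKO and 78.8, 120.2 and 89.5 CPM in the controls, so that a control library was the highest of all 6. Egr1 had a log2 fold change of 0.18 (SE 0.17; adjusted p = 0.568 by edgeR). Egr2, also a regulator of Schwann cell myelination, measured 12.2, 9.64 and 13.9 CPM in DKO and 7.02, 11.2 and 10.6 CPM in the controls (log2 fold change 0.31, SE 0.21; adjusted p = 0.422 by edgeR). Groups overlapped for both. Egr4, the remaining paralog, lay at 2.32, 1.58 and 1.12 CPM in DKO and 0.313, 0.628 and 0.547 CPM in controls, a log2 fold change of 1.79 just outside the threshold (SE 0.39; adjusted p = 0.0503 by edgeR). It is named here after its values were seen. The EGR co-repressor genes Nab1 and Nab2 did not pass the test (log2 fold changes -0.26 and -0.09).

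Of the 2 IER genes, Ier5 rose and Ier2 did not pass the test. Ier5, a regulator of the heat shock factor HSF1, measured 93.8, 88.1 and 80.3 CPM in DKO and 55.1, 59.4 and 60.3 CPM in the controls. The spread within each group was small beside the gap between them. Its log2 fold change of 0.59 corresponded to a rise by 1.5 times (SE 0.08; adjusted p = 0.00941 by edgeR), and the call ended without DKO replicate 1 (edgeR adjusted p = 0.0528). Ier5 lies on chromosome 1, 155096367 to 155099636. Ier2 measured 236, 173 and 202 CPM in DKO and 133, 171 and 194 CPM in controls, overlapping between groups (log2 fold change 0.30, SE 0.16; adjusted p = 0.328 by edgeR).

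Levels of different genes were compared per kilobase of merged GENCODE M21 exons. In controls the order from the highest was Ier2 (109 ± 20.3 CPM per kb), Fos (49.2 ± 9.36), Egr1 (21.4 ± 4.79), Ier5 (17.8 ± 0.857), Fosb (16.6 ± 3.2), Junb (8.89 ± 2.39), Egr2 (2.82 ± 0.661), Arc (2.08 ± 0.422), Egr3 (0.459 ± 0.0678) and Npas4 (0.305 ± 0.038). The ranges of mean ± SD overlapped there among Egr1, Ier5 and Fosb, and between Egr2 and Arc. In DKO libraries Arc stood at 13.4 ± 2.69 CPM per kb, beside Junb at 10.7 ± 2.16 and well above Egr2 at 3.5 ± 0.627. Fosb, Ier5 and Egr1 again lay close together in DKO libraries (27.5, 26.7 and 24.3 CPM per kb). Npas4 at 1.25 ± 0.681 and Egr3 at 0.873 ± 0.116 CPM per kb did not differ beyond their spread.

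Read within each library, Arc was higher relative to Fos, Junb, Egr1 and Ier2, which respond to dissociation, in every DKO library than in any control. Per 100 counts of Fos there were 36.5, 28.6 and 26.5 counts of Arc in DKO replicates 1 to 3 and 5.73, 4.99 and 5.83 in the controls. The controls were alike in this ratio although Fos itself varied among them, and the ratio was 5.48-fold higher in DKO (log2 difference 2.45, SD 0.24 in DKO and 0.12 in the controls). Against Ier2 there were 20.9, 23.7 and 16.2 counts of Arc per 100 in DKO and 3.93, 3.59 and 4.0 in the controls. Against Egr1 there were 41.2, 44.2 and 28.4 in DKO and 6.61, 5.11 and 8.67 in controls. Ratios cancel scaling between libraries, and over Fos, Junb, Egr1, Egr2 and Ier2 the fold lay between 5.13 and 5.597.

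The fold was smaller over the other genes that had risen or nearly so, at 4.28 over Ier5, 3.83 over Fosb and 3.39 over Egr3. For these 8 ratios all DKO libraries lay above all controls. The exact 2-sided permutation p was 0.1, the smallest that 3 against 3 libraries can give (0.112 adjusted over the 9 ratios). Over Npas4 the groups overlapped, with 1122, 494 and 1174 counts of Arc per 100 of Npas4 in DKO and 364, 548 and 631 in controls (1.74-fold; exact permutation p = 0.3). With 3 against 3 libraries this test could not fall below 0.1 for any of the 9 ratios. It therefore could not decide whether Arc and Npas4 rose to different degrees.

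**Figure D2:**
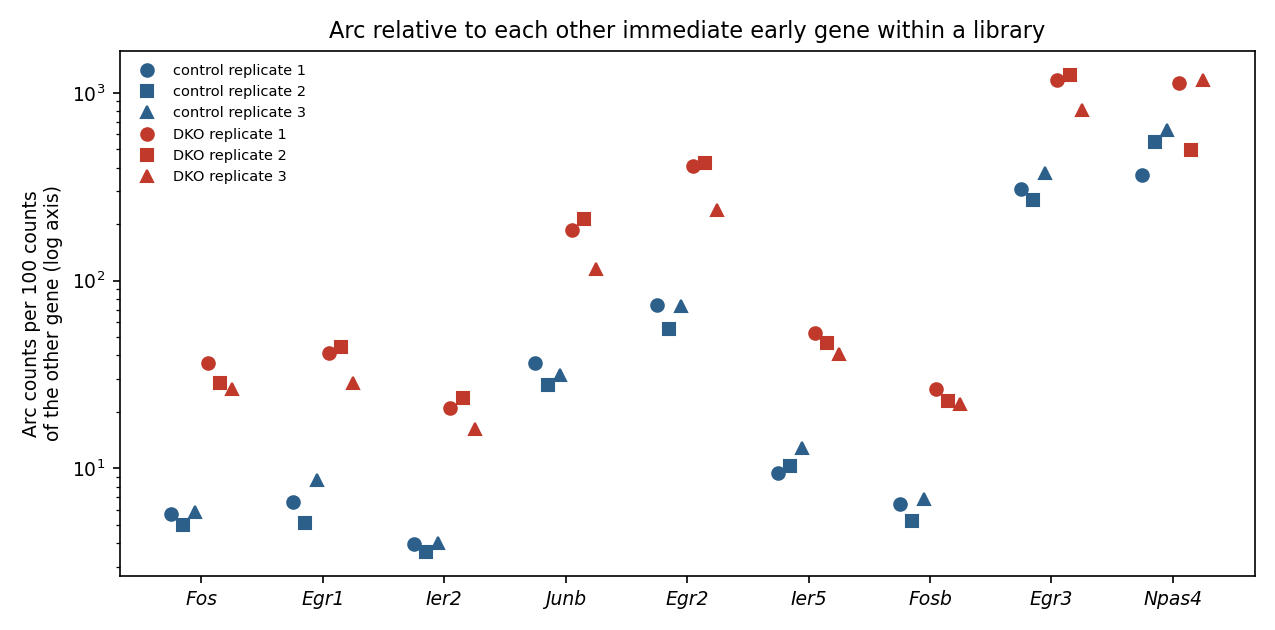
Counts of Arc per 100 counts of each other immediate early gene, on a log axis, in each control (blue) and DKO (red) library. All DKO points lie above all control points for 8 of the 9 genes, and for Npas4 DKO replicate 2 (494) lies among the controls (364 to 631).

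None of the early genes induced by dissociation, other than the 10, passed the test in edgeR. Of 21 such genes, all tested, 0 were called by edgeR, 0 by limma-voom and 1 by DESeq2 (Socs3), and 3 had an unadjusted p below 0.05. Over all tested genes edgeR called 3.01%, limma-voom 2.82% and DESeq2 7.6%, so such counts do not set the 21 genes apart. Their median log2 fold change was 0.10, with a range from -0.46 (Cebpb) to 0.47 (Atf3), and 14 were positive. Jun, an AP-1 subunit gene, measured 634, 546 and 599 CPM in DKO and 381, 546 and 551 CPM in the controls. Jund measured 431, 402 and 362 CPM in DKO and 301, 388 and 422 CPM in the controls. Neither was called. Without DKO replicate 3, where 7.57% of all tested genes were called, Klf4, Nr4a1 and Socs3 were called higher among the 21. Arc, at a log2 fold change of 2.69, lay outside the range of these 21 single genes, -0.46 to 0.47. In the DKO libraries Arc stood at 5.15 to 7.73 times its control mean. The summed level of the list stood at 1.10 to 1.19 times its control mean there, but a sum spreads less than single genes.

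Heat shock and metallothionein genes, which also respond to dissociation, had a median log2 fold change of -0.17 over 15 genes. None was called by edgeR, DESeq2 or limma-voom, and 0 had an unadjusted p below 0.05, while without DKO replicate 3 edgeR called Mt1 lower. Their summed level was highest in control replicate 2 (8048 CPM), against 5407 and 6733 CPM in the other controls and 5525 to 6520 CPM in DKO libraries. Hspa8 and Hsp90ab1, the most abundant, had log2 fold changes of -0.05 and -0.23. The whole list of 41 dissociation-responsive genes, which shares Fos, Fosb, Junb, Egr1 and Ier2 with the 10, had 1 called gene, Fosb. Beside the 3.01% of all tested genes that edgeR called, neither 0 of 15 nor 1 of 41 stands apart.

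Control replicate 1 was the lowest library for 9 of the 10 genes, and the lowest control for 14 of the 21 early dissociation-responsive genes. Its summed level of the 21 was 1826 CPM, against 2173 and 2321 CPM in the other controls and 2309 to 2511 CPM in DKO libraries. Without this library the log2 fold changes of Fos, Junb, Egr1, Egr2 and Ier2 lay between 0.07 and 0.17. Without control replicate 1 Arc had a log2 fold change of 2.56 (edgeR adjusted p = 0.00559). With the mean log2 level of the 21 genes as a covariate, Arc stood at 2.42 (edgeR adjusted p = 0.00439). That fit called 0.611% of all tested genes, against 3.01% without the covariate. Fosb, Ier5 and Npas4 were no longer called in it (0.53, 0.50 and 2.04 with edgeR adjusted p = 0.0763, 0.052 and 0.156). Without the covariate their log2 fold changes were 0.73, 0.59 and 2.02.

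**Figure D3:**
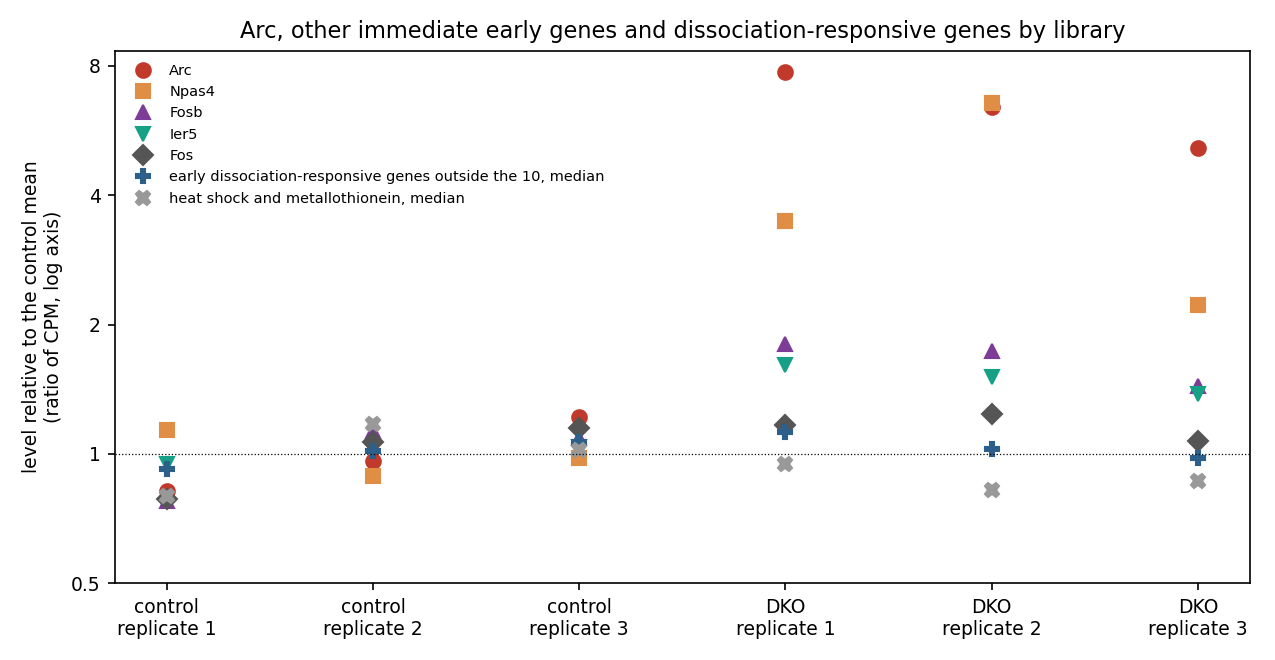
Level of Arc, Npas4, Fosb, Ier5 and Fos, and the median over genes of 2 dissociation-responsive lists, as a ratio to the control mean in each library (log axis). Arc lies between 5.15 and 7.73 in the DKO libraries, where Fos lies between 1.07 and 1.24, the early dissociation-responsive median between 0.98 and 1.12 and the heat shock median between 0.82 and 0.95.

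Other immediate early genes, from the NR4A, KLF, DUSP and CCN families among others, had 39 tested members and 0 called by edgeR or limma-voom. Over all tested genes edgeR called 3.01%. DESeq2 called 2 higher, Egr4 and Socs3, and 6 were higher at an unadjusted p below 0.05. Their median log2 fold change was 0.15 and 28 were positive. Jun and Ccn1, the most abundant, had values of 0.27 and 0.05. Without DKO replicate 3 edgeR called 5 of them higher, namely Fosl2, Egr4, Nr4a1, Klf4 and Socs3, in a fit that called 597 genes higher over the whole table, and without any other library it called 0 of the 39.

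The upstream factors and kinases of these genes were read as a further list. Of 26 genes for SRF, its partners, CREB family factors, their co-activators and the MAP kinases, 0 were called by edgeR or limma-voom and 1 (Crem, lower) by DESeq2. At an unadjusted p below 0.05, 1 was higher and 3 were lower. Srf itself measured 426, 403 and 336 CPM in DKO and 300.2, 323 and 334 CPM in the controls (log2 fold change 0.28, SE 0.10; adjusted p = 0.164 by edgeR). The co-activator gene Ep300 had a log2 fold change of -0.08. Without DKO replicate 3, Srf was called higher and Creb1, Crem and Rps6ka3 lower. MAP kinase feedback genes, targets of the same cascade that FGF signals use in the arches, had 11 tested members and 0 called by edgeR or limma-voom, with 2 higher and 2 lower at an unadjusted p below 0.05. DESeq2 called Spry1 higher, and without DKO replicate 3 edgeR called Spry1 higher and Spred1 lower. Dusp7 and Spred1, the most abundant, had log2 fold changes of -0.15 and -0.20. Neither list stands apart from the 3.01% of all tested genes that edgeR called.

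Later activity-regulated genes of neurons had 14 tested members, of which 1 rose, Pcsk1, the gene of a prohormone convertase. It measured 3.77, 5.03 and 4.05 CPM in DKO and 0.537, 0.314 and 0.752 CPM in controls, without overlap (log2 fold change 2.97, SE 0.31; adjusted p = 0.00272 by edgeR). The call of Pcsk1 held without each of the 6 libraries. DESeq2 also called Scg2 higher, and without DKO replicate 3 edgeR called Scg2 higher and Homer1 and Nrn1 lower. Over the list the median log2 fold change was 0.06 and 7 members were negative. Among genes descended from Gag proteins like Arc, 18 were tested and 1 rose, Asprv1, a retroviral-like aspartic protease gene. Asprv1 measured 2.61, 2.696 and 1.41 CPM in DKO and 0.268, 0.314 and 0.615 CPM in controls (log2 fold change 2.495, SE 0.41; adjusted p = 0.0185 by edgeR). Its call ended without DKO replicate 1, control replicate 1 or control replicate 2. DESeq2 also called Pnma2 higher. The list's median was 0.16. In both lists edgeR called 1 gene, and 3.01% of all tested genes were called.

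**Figure D4:**
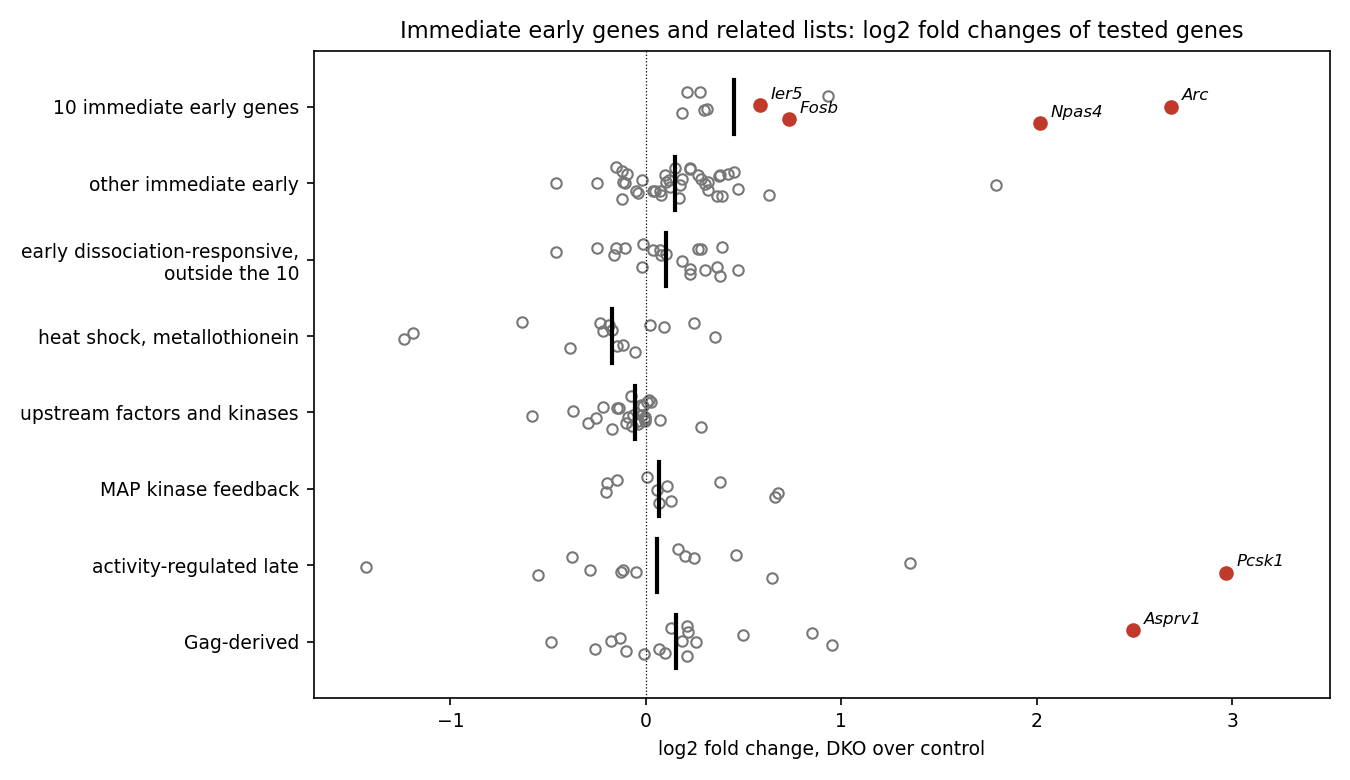
Log2 fold change (DKO over control) of every tested gene in 8 lists, with called genes in red, other genes as open circles and a black bar at each list's median. Arc (2.69) and Npas4 (2.02) lie to the right of all other genes of the first 4 lists, whose medians are 0.45, 0.15, 0.10 and -0.17, and Pcsk1 (2.97) and Asprv1 (2.495) stand alone in their lists.

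The chromosomal surroundings of Arc were also examined. Of 15 protein-coding genes in the table whose start lies within 250 kb of the Arc start, 4 were tested and 5 had no count in any library. Jrk, a gene of transposase origin 37.0 kb away, rose from 13.96 ± 1.72 to 23.3 ± 2.26 CPM (n = 3, SD; log2 fold change 0.74, SE 0.13; adjusted p = 0.0231 by edgeR), a call that ended without DKO replicate 1 or 2 and without any 1 of the controls. Adgrb1, an adhesion G protein-coupled receptor gene 156.4 kb away on the other side, stood at 30.7 ± 2.73 and 16.7 ± 4.58 CPM without overlap and was not called (log2 fold change 0.88, SE 0.19; adjusted p = 0.0534 by edgeR). Adgrb1 was, however, called higher in 6 of 16 fits. These were DESeq2, limma-voom, library-size scaling, the replicate block, the fit without a filter and that without control replicate 3. Neither Lynx1 (0.75) nor Them6 (0.27) was called in any fit. All 4 were positive, each far below Arc. Around Npas4, 1 of 22 tested neighbours rose, Tmem151a (log2 fold change 2.18, SE 0.34; adjusted p = 0.0148 by edgeR), 95.2 kb away, from 0.244 ± 0.0231 to 1.11 ± 0.287 CPM. Its call ended without DKO replicate 1 and without any 1 of the controls. Log2 fold changes of the tested neighbours ranged from -0.74 to 0.31 over 21 genes around Fosb and from -0.10 to 0.68 over 4 genes around Ier5, and edgeR called none of them. Over all tested genes edgeR called 3.01%.

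**Figure D5:**
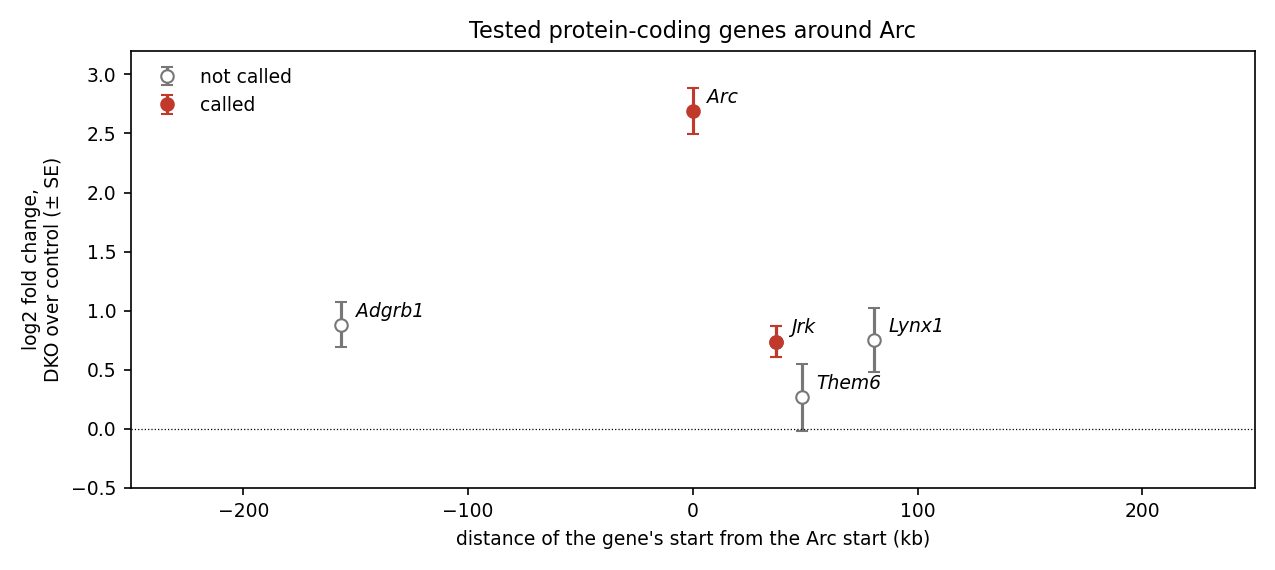
Log2 fold change ± SE of Arc and the 4 tested protein-coding genes that start within 250 kb of it, against the distance along the chromosome between starts in kb. Arc lies at 2.69, Adgrb1 at 0.88, Lynx1 at 0.75, Jrk at 0.74 and Them6 at 0.27, and Arc and Jrk (filled) are called.

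The genes whose log2 level over the 6 libraries was most like that of Arc, among 13138 other genes with a mean of at least 1 CPM, were Crtac1 (Pearson r = 0.997), Ush1c (0.996), Htr3b (0.994), Ier5 (0.994) and Ogdhl (0.993). These values describe 6 libraries that fall into 2 groups. Ier5 was the 1 gene of the 10 among them. For the remaining genes of the set r was 0.95 (Egr3), 0.93 (Fosb), 0.89 (Npas4), 0.68 (Ier2), 0.64 (Fos), 0.55 (Egr2), 0.49 (Junb) and 0.43 (Egr1). Htr3b, a serotonin receptor subunit gene, measured 13.5, 12.1 and 9.34 CPM in DKO and 1.99, 2.78 and 2.53 CPM in controls, and as for Arc DKO replicate 1 was the highest library and DKO replicate 3 the lowest of the DKO group.

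Markers of the labelled and of other cells were read beside these changes. Over all tested genes edgeR called 3.01% and DESeq2 7.6%, and the share with an unadjusted p below 0.05 was not counted. Of the 12 arch crest mesenchyme markers 9 had a negative log2 fold change, 0 were called by edgeR, and 0 were higher and 4 lower at an unadjusted p below 0.05, while DESeq2 called Msx2 and Tfap2a lower. The DKO libraries averaged 2019 ± 217 CPM for these summed markers, where the controls averaged 2274 ± 191 CPM. Of 12 neuron markers, 11 had a negative log2 fold change, and 1 was called, Pou4f1, a sensory neuron factor gene, at a log2 fold change of -0.45 (SE 0.09; adjusted p = 0.0306 by edgeR). That call of Pou4f1 ended without each library but DKO replicate 3, without which Elavl4 and Isl1 were called lower too. DESeq2 called Isl1 and Pou4f1 lower. Schwann cell precursor markers summed to 266 to 274 CPM in DKO and 275 to 301 CPM in controls, with 0 of 8 called by edgeR, 1 (Erbb3, lower) by DESeq2, and 2 higher and 1 lower at an unadjusted p below 0.05. Endothelial markers were higher in sum in every DKO library, with all 6 positive and a sum of 19.9 to 23.1 CPM in DKO against 12.9 to 17.0 CPM in controls, although 0 were called by edgeR, 1 (Pecam1, higher) by DESeq2, and 2 were higher at an unadjusted p below 0.05. Pecam1 measured 6.17, 7.54 and 5.77 CPM in DKO and 4.85, 2.87 and 3.42 CPM in controls. The part of endothelial, mesenchymal, neuronal and Schwann-lineage cells in the immediate early levels was not tested. Sums of neural tube, immune, epithelial, muscle, smooth muscle and erythroid markers overlapped between groups, and each listed marker had at least 1 count over the 6 libraries. Erythroid sums were 13.2, 40.9 and 219 CPM in DKO replicates 1 to 3 and 65.1 to 120 CPM in controls. Neural tube sums were 89.8, 63.2 and 199 CPM in DKO replicates 1 to 3 and 79.0 to 171 CPM in controls. Without DKO replicate 3 edgeR called the epithelial marker Epcam and the erythroid marker Alas2 lower.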

How the data were processed

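Polyadenylated RNA of TdTomato-sorted branchial arch cells was measured in 6 libraries. The authors deposited whole-number counts per gene symbol, not normalized. The aligner was STAR 2.7.10a with mm10, and Picard and Trim Galore are also listed, per the submitters' processing notes. The sources used here do not name the counting program, strand setting or annotation.

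Genes were kept by filterByExpr (minimum count 10, minimum total 15), scaled by TMM and tested with the robust quasi-likelihood test of edgeR 4.0.16 (R 4.3.3), group only, 2-sided, with Benjamini-Hochberg adjustment over 14555 genes and a call below 0.05. The standard error is the log2 fold change over the root of F. Ratios of Arc to another gene used counts plus 0.5 and an exact permutation test. Likeness to Arc used log2(CPM + 0.5). Coordinates are those of RefSeq GRCm38.p6, and exon lengths are from GENCODE M21. The fit was tested on simulated data with 100 genes changed 2-fold and 100 changed 4-fold, of which it recovered 76 and 98. Of its 186 calls there, 6.45% were unchanged genes. Alternatives were a replicate block, RLE or library-size scaling, other filters, DESeq2 1.42.0, limma-voom (limma 3.58.1), a test against a 1.5-fold change, a dissociation covariate and leaving out each library.

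The 10 genes and 21 lists were chosen with earlier results of these data known. Named were the 10 genes, up to 4 called genes of a list by adjusted p or else its 2 most abundant, the 5 genes most like Arc, neighbours within 250 kb of a called gene, and Ehmt1 and Ehmt2. Genes named for being called under an alternative, or at the end of a range, were chosen after their values were seen.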

Additional observations from a re-analysis of the deposited data

How the results depend on the processing

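Arc kept its direction and its call in all 15 alternatives. The 10 genes stayed positive in each of them. The count of called genes among the 10, which was 4, was 1 (Arc) against a 1.5-fold change, 1 (Arc) with the dissociation covariate, and 1 to 4 with each library left out. The count over all tested genes, which was 438, was 1106 with the DESeq2 Wald test, 122 against a 1.5-fold change, 89 with the dissociation covariate, and 131 to 1106 with each library left out (1106 without DKO replicate 3). Scaling by library size moved the split of calls from 319 higher and 119 lower (72.8% higher) to 416 and 80 (83.9%), and the median of all genes from -0.01 to 0.07. DESeq2 gave 56.4% higher. The cause of these shifts was not tested. The replicate block gave 619 calls and the same 4 of the 10 genes. Same-numbered libraries had correlated deviations in 1 of 3 pairs (0.05, -0.03 and 0.36), and DKO replicate 2 correlated best with control replicate 1 (0.45). The labels name no shared litter or day, so the numbers were not used to pair libraries, and a shared batch was not tested. Depth limits Npas4 most, at 25 counts in the shallowest library.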
